A study of Mus musculus with 9 samples.

Results

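The 41 genes described here encode the Sm, LSm and snRNP proteins of the splicing machinery, out of 14013 genes kept for testing in the mouse medial prefrontal cortex. They were picked out by symbol: the Snrp, Snrnp and numbered Lsm genes, and the Sf3a and Sf3b subunits, at 0.5 FPKM or more in at least 3 of 9 libraries. This set of symbols was chosen with earlier results of these data known. FPKM divides the fragments of a gene by the length of its transcript and by the total of the library, so levels can be compared between genes. All 41 matching genes passed that minimum, and the lowest single value among them was 3.57 FPKM, for Lsm11 in a CUS library. Polyadenylated RNA was measured in 3 groups of 3 libraries each. The control mice were unstressed, the CUS mice had gone through chronic unpredictable stress, which serves as a mouse model of depression, and the running mice carry the label exercise and, by the series design, were also exposed to the stress. All 3 groups carry the time terms 4 week and week 8, whose meaning is not stated. The labels give no strain, age or form of running. They do not say whether each library came from its own animal, so p-values here reflect only how far these libraries spread, part of which may be technical. Replicates were numbered by order of listing, and equal numbers do not pair libraries.

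Splicing is carried out by small nuclear RNAs packed with proteins into small nuclear ribonucleoproteins, or snRNPs. Sm proteins form a ring on the U1, U2, U4 and U5 RNAs, and the related LSm proteins form a ring on U6. Each snRNP then adds proteins of its own, and U2 adds the SF3a and SF3b complexes that hold the branch point of the intron. A cytoplasmic LSm ring works in mRNA decay, and a variant ring on the U7 RNA helps to cut histone pre-mRNAs. In neurons the imprinted gene Snrpn supplies much of the SmB-type protein.

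The promoter-side sequence of 4 members is shown because they lie at the ends of the pattern described further on. Lsm10 and Lsm11 differed between groups in opposite directions, Lsm5 had the lowest difference between running and CUS, and Snrnp200 has the longest transcript of the 41. The stretches hold no GENCODE M21 exon and no part of the gene's own RefSeq span, come from RefSeq on GRCm38.p6, and read 5′ to 3′ on the strand of the gene, with capitals for matches to the motifs named after them. They lie at chr4:126096403-126096561 on the plus strand (Lsm10), chr11:45944997-45945185 on the minus strand (Lsm11), chr6:56704711-56704949 on the minus strand (Lsm5) and chr2:127208281-127208385 on the plus strand (Snrnp200).
Lsm10: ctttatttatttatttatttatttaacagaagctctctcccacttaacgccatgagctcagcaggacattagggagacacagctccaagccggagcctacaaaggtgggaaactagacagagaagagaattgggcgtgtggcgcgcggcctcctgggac
Lsm11: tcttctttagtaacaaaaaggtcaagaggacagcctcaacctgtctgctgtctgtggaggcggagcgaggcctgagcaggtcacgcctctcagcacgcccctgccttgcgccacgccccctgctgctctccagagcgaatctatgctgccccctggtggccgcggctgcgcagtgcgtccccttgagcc
Lsm5: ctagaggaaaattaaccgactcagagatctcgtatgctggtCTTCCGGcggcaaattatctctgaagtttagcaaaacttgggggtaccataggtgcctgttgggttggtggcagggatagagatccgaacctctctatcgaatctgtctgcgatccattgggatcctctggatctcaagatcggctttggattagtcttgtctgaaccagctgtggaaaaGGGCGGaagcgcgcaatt
Snrnp200: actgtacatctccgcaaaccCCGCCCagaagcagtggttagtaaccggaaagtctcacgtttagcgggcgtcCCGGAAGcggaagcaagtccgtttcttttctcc

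In these stretches Lsm5 and Snrnp200 each hold an ETS core and a GC box, and those of Lsm10 and Lsm11 hold no match to a motif searched. Promoter windows of 300 bases, with 250 before and 50 after a start site, were found for 33 of the 41 members, which have 40 windows. The ETS core CCGGAAG, bound by ETS-family factors, stood in 14 of the 40 windows (35.0%), in 15.3% of the 14338 windows of other kept genes and in 8.9% of all 32851 windows. The GC box GGGCGG, bound by Sp1, stood in 26 of 40 (65.0%) against 60.2% in other kept genes, and TATAAA in 4 (10.0%) against 7.3%. The letters GCGCATG, from the NRF1 motif, stood in 5 windows (12.5%) against 6.3%, and AAGATGG, from the YY1 motif, in 3 (7.5%) against 6.6%. The printed stretches of Lsm10 and Lsm11 end 92 and 62 bases before the start site. Their 300-base windows reach further, and each held a GC box, with the NRF1 letters also in that of Lsm10. Both strands were searched, and matches could overlap each other. Windows of the same gene could overlap too, as for Sf3b2 and Lsm7, and each was counted. By gene, the ETS core stood in 13 members, the GC box in 24 and the YY1 letters in 2. These are letter matches, described without a test.

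Levels spanned from a mean of 264 FPKM for Snrpn to 4.60 for Lsm11. Snrpn was followed by Snrnp70, the U1-specific protein that binds the U1 RNA, at 111 FPKM, by the Sm protein Snrpd2 at 88.5 and by the SF3b subunit Sf3b2 at 70.9. The other Sm core genes had means of 27.3 to 53.6 FPKM, the rings' LSm genes 5.83 to 51.4, and the 3 proteins of the minor spliceosome, which removes a rare class of introns, 7.23 to 10.7. Snrpn had 259.39, 253.8 and 265.34 FPKM in the control libraries, 279.68, 270.68 and 289.11 in the CUS libraries and 262.77, 245.34 and 251.42 in the running libraries. All 3 CUS values lay above the other 6. The CUS minus control difference of Snrpn was 0.11 on the log2(FPKM + 0.5) scale (SE 0.0569, limma adjusted p = 0.376) and the running minus CUS difference was -0.14 (adjusted p = 0.164). Snurf, which is read from the same transcript, differed by 0.09 and -0.14, and reads of both genes cannot be told apart.

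**Figure D1:**
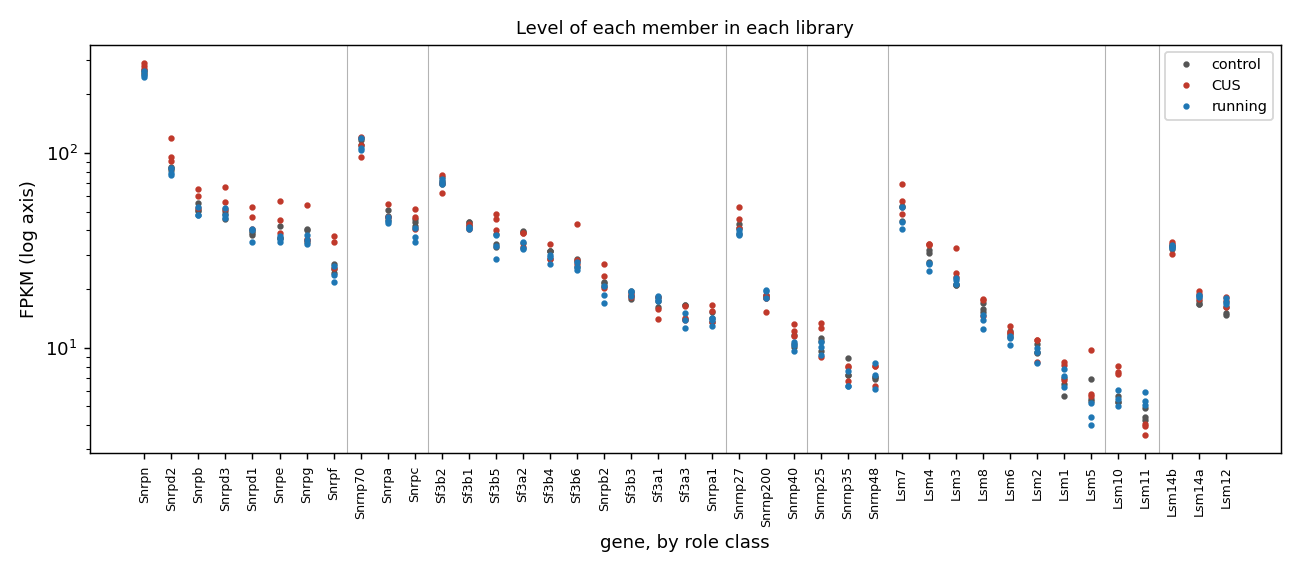
FPKM of each of the 41 genes in each of the 9 libraries (log axis), ordered by role class and mean level, 1 point per library. Snrpn stands highest at a mean of 264 FPKM, and differences between genes are far wider than those between groups.

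None of the 41 genes passed limma's test at a Benjamini-Hochberg adjusted p under 0.05 in any of the 3 comparisons. Over all kept genes that rule called 1 gene (0.00714%) in CUS against control, 1 (0.00714%) in running against CUS and 3 (0.0214%) in running against control. The smallest adjusted p among members was 0.224, 0.0776 and 0.309 in that order. In this model of all 9 libraries every member's difference therefore missed the threshold, and sizes and values are given as measured. In bulk tissue, fewer cells of a type and less RNA per cell cannot be told apart.

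Between CUS and control, 31 of the 41 genes had a difference above 0, against 55.9% of all kept genes. At an unadjusted limma p under 0.05, 13 members were higher and 1, Lsm11, was lower, against 8.9% and 5.79% of all kept genes. The 3 CUS values lay above the 3 control values in 9 members and below them in 1, against 12.1% and 7.6%.  The median difference was 0.11 over members and 0.02 over all kept genes. All 8 Sm core genes and all 8 genes of the LSm rings were above 0, with medians of 0.26 and 0.18, whereas the 11 U2-specific genes split 5 above and 6 below with a median of -0.04. With libraries rescaled to a common sum (TPM), the LSm ring split 5 above and 3 below. Rescaling also moved the split of all genes at unadjusted p under 0.05 from 1247 higher and 811 lower to 572 and 1393, and that of the members from 13 and 1 to 8 and 2.

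Between running and CUS, 33 of the 41 genes had a difference below 0, against 57.8% of all kept genes. At an unadjusted limma p under 0.05, 19 members were lower and 1, Lsm11, was higher, against 15.7% and 7.74% of all kept genes. The 3 running values lay below the 3 CUS values in 13 members and above them in 1, against 15.9% and 8.99%. The median was -0.16 over members and -0.03 over all kept genes. All 8 Sm core and all 8 LSm ring genes were below 0, each class with a median of -0.26, and with quantile normalization 7 of the 8 Sm core genes were, with Snrpn at 0.02. With the trend of length and GC content removed, Snrpg was 0.02, Lsm2 0.10 and Lsm3 0.03, and the other genes of these 2 classes stayed below 0. At an adjusted p under 0.1 there were 8 members, against 928 kept genes (6.62%). Rescaling to TPM moved the split of all genes at unadjusted p under 0.05 from 1085 higher and 2202 lower to 2456 and 924, and that of the members from 1 and 19 to 3 and 10. This comparison and CUS against control share the CUS libraries, with opposite sign, which favours opposite signs in any gene. Of the members, 28 were above 0 in the earlier and below 0 in the later one, and 5 were the reverse. The share of all kept genes with either order was not counted, so these counts do not set the members apart.

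Between running and control, 29 of the 41 genes had a difference below 0, against 56.2% of all kept genes. At an unadjusted limma p under 0.05, 2 members were higher (Lsm11 and Lsm12) and 4 were lower (Lsm4, Lsm8, Snrpc and Sf3a2), against 5.15% and 6.47%. The groups did not overlap in 4 members that were higher and 7 that were lower in running mice, against 10.5% and 11.9%. The median was -0.07 over members and -0.02 over all kept genes. Rescaling to TPM moved the split of all genes from 722 higher and 906 lower to 1012 and 594, and that of the members to 3 and 3.

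**Figure D2:**
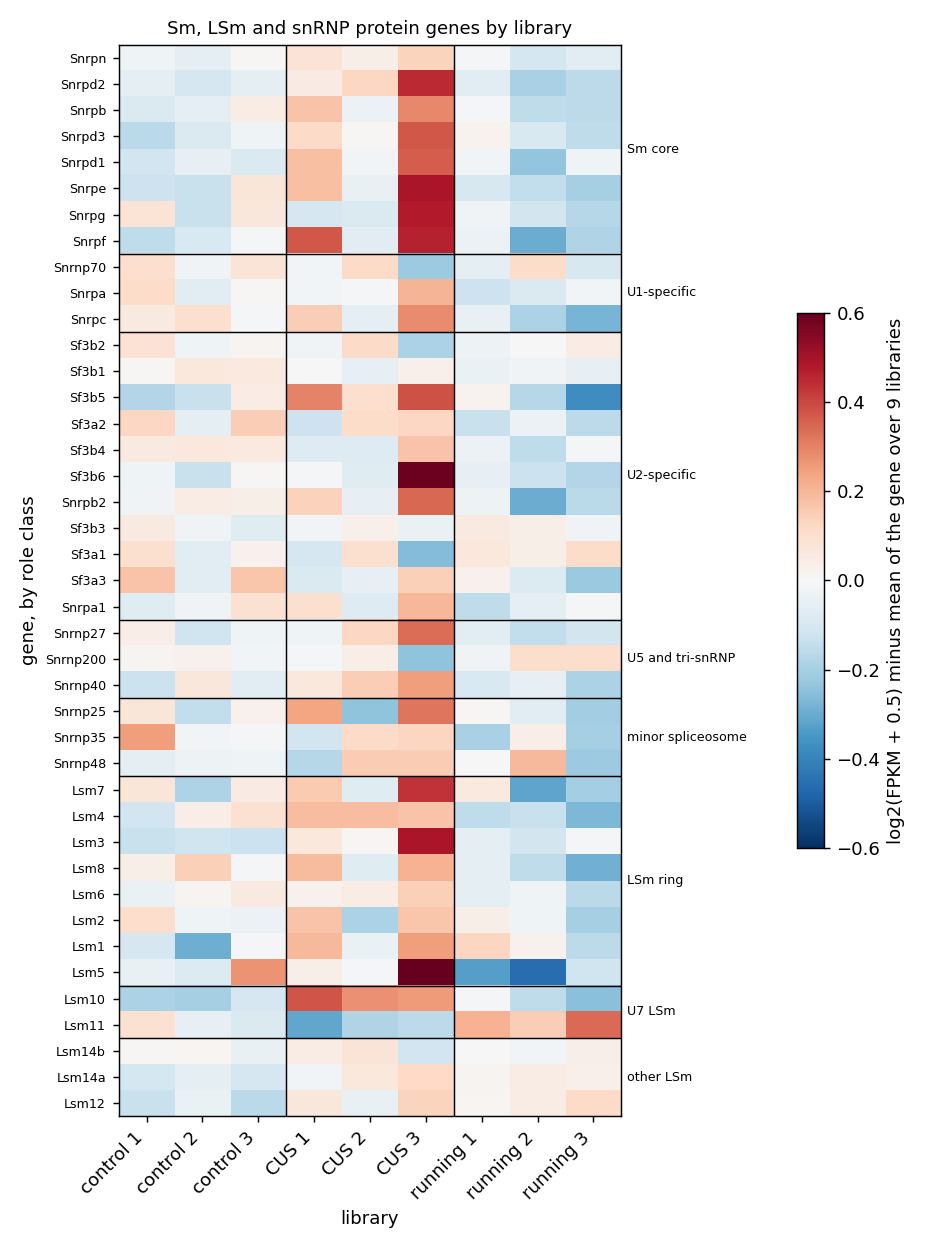
log2(FPKM + 0.5) of each gene minus its mean over the 9 libraries (colour scale from -0.6 to 0.6), with genes in rows by role class and libraries in columns by group. CUS replicate 3 was the highest library for 26 of the 41 genes, and running replicate 3 the lowest for 16. The shares over all kept genes were not counted, so these counts do not set the members apart.

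The Sm core genes showed their highest values in CUS replicate 3. Snrpd2, whose protein pairs with SmD1 in the ring, had 84.16, 81.85 and 84.56 FPKM in control, 90.92, 95.55 and 120 in CUS and 83.84, 76.71 and 78.65 in running libraries. The CUS values lay above all others, by 0.28 (SE 0.0912) over control, and running minus CUS was -0.35 (limma adjusted p = 0.0877). Snrpf, the SmF gene, had 24.14, 25.22 and 26.75 in control, 34.93, 25.67 and 37.3 in CUS and 26.25, 21.81 and 23.65 in running libraries. Here CUS replicate 2 lay among the control values, and the differences were 0.34 (SE 0.122) and -0.43 (adjusted p = 0.0959). Exons of Snrpf overlap Ccdc38 on the opposite strand, and the protocol does not mark strand, so these reads cannot be told apart.

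Snrpd1 had 37.89, 39.7 and 38.62 FPKM in control, 46.7, 40.66 and 52.96 in CUS and 40.65, 34.76 and 40.41 in running libraries. Its CUS replicate 2 (40.66) barely exceeded the highest running value (40.65). Snrpd3, the SmD3 gene, had 45.97, 48.39 and 50.62 in control, 55.68, 51.69 and 66.83 in CUS and 52.3, 48.27 and 46.25 in running libraries. Both were 0.26 higher in CUS than in control, with limma adjusted p of 0.282 and 0.277, and neither CUS group overlapped control. Snrpb, which encodes the SmB proteins, Snrpe and Snrpg differed from control by 0.18, 0.27 and 0.09 in CUS mice, and all 3 overlapped it. Across the class, the running minus control differences ran from -0.11 to 0.02, with overlap in all 8 genes.

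The U1-specific proteins differed less between CUS and control, from -0.09 to 0.08. Snrnp70 had 119, 109.33 and 117.2 FPKM in control, 109.72, 120.22 and 95.17 in CUS and 106.64, 119.8 and 103.65 in running libraries. Its 3 groups overlapped in every pairing. Snrpc, which encodes the U1 protein that steadies pairing with the splice donor site, had 44.05, 45.55 and 42.12 in control, 47.01, 40.93 and 51.7 in CUS and 41.09, 37.16 and 34.87 in running libraries. Running values lay below all control values, at -0.22 (SE 0.0876, limma adjusted p = 0.378), and at -0.30 against CUS (adjusted p = 0.0988), where 1 value overlapped. Snrpa, another protein bound to the U1 RNA, was -0.13 in running against CUS, with no overlap.

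Among the 11 U2-specific genes, Sf3b5 stood apart from the rest. This small SF3b subunit had 32.99, 33.93 and 38.49 FPKM in control, 45.99, 40.06 and 48.77 in CUS and 37.91, 33.12 and 28.69 in running libraries. Its CUS values lay above all others, by 0.35 over control (SE 0.106, limma adjusted p = 0.26), and running minus CUS was -0.43 (adjusted p = 0.0827). Sf3b6, the subunit next to the branch-point adenosine, had 42.96 FPKM in CUS replicate 3 and 25.11 to 28.52 in the other 8 libraries. Sf3b1, the large scaffold subunit, stayed between 40.8 and 44.15 in all libraries.

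Sf3b2 had 75.13, 69.57 and 71.51 FPKM in control, 69.82, 76.74 and 62.01 in CUS and 69.32, 70.83 and 73.11 in running libraries. Sf3a1, an SF3a subunit, had 18.11, 16.17 and 17.27 in control, 15.74, 18.12 and 14.06 in CUS and 17.7, 17.37 and 18.32 in running libraries. Both were lowest in CUS replicate 3 and overlapped in all 3 comparisons, and Sf3a1 had the highest running minus CUS difference of the class, 0.16 (limma adjusted p = 0.284). Sf3a2 had 39.08, 34.4 and 39.65 in control, 32.8, 38.67 and 38.98 in CUS and 32.55, 34.89 and 32.02 in running libraries. Sf3a3 had 16.64, 14.06 and 16.63 in control, 13.84, 14.21 and 16.33 in CUS and 15.03, 13.92 and 12.55 in running libraries. These other SF3a subunits were both -0.18 in running against control, with overlap. Snrpb2, which binds the U2 RNA together with Snrpa1, was -0.31 in running against CUS (limma adjusted p = 0.11), with overlap, and -0.18 against control, without overlap.

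Of the 3 tri-snRNP genes, Snrnp40 and Snrnp27 went the other way from Snrnp200 in running against CUS. Snrnp40, a U5 protein, had 10.05, 11.56 and 10.48 FPKM in control, 11.54, 12.25 and 13.19 in CUS and 10.33, 10.64 and 9.61 in running libraries. Running values lay below all CUS values, at -0.26 (SE 0.0757, limma adjusted p = 0.0963). Snrnp27 had 43.1, 38.57 and 41.29 in control, 41.21, 45.8 and 53.02 in CUS and 40.15, 37.79 and 38.81 in running libraries, also without overlap between running and CUS. Snrnp200, the helicase that unwinds U4 from U6, had 18.44, 18.58 and 18.01 in control, 18.05, 18.72 and 15.32 in CUS and 17.96, 19.62 and 19.67 in running libraries. It was lowest in CUS replicate 3, and its running minus CUS difference was 0.14, with overlap (limma adjusted p = 0.302). The transcripts measure 1584 bases for Snrnp40, 885 for Snrnp27 and 6745 for Snrnp200. With the trend of length and GC content removed, as described further on, their running minus CUS differences were -0.14, 0.00 and -0.00. Opposite directions of Snrnp27 and Snrnp200 were then not seen.

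The minor spliceosome genes overlapped in all 3 comparisons. Snrnp25 had 11.22, 9.56 and 10.81 FPKM in control, 12.61, 8.91 and 13.4 in CUS and 10.68, 10.11 and 9.14 in running libraries. Snrnp48 had 6.92, 7.03 and 7.06 in control, 6.34, 8.05 and 8.04 in CUS and 7.2, 8.31 and 6.11 in running libraries. In both genes the CUS libraries spread wider than the control libraries. Snrnp35 differed by -0.16 in running against CUS.

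In the LSm rings, Lsm4 had the most even CUS values. It had 27.49, 30.7 and 31.83 FPKM in control, 33.93, 34.01 and 33.61 in CUS and 26.76, 27.15 and 24.63 in running libraries. The order running, control, CUS held without overlap in any pairing, with 0.17 for CUS minus control (SE 0.0656, limma adjusted p = 0.295), -0.37 for running minus CUS (adjusted p = 0.0776) and -0.19 for running minus control (adjusted p = 0.309). Lsm3 had 20.97, 21.24 and 21.07 in control, 24.11, 23.16 and 32.63 in CUS and 22.22, 21.32 and 22.91 in running libraries. Control was lowest and CUS highest in Lsm3 without overlap, and CUS minus control was 0.31 (SE 0.107, adjusted p = 0.267).

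Lsm5 had 5.47, 5.32 and 6.91 FPKM in control, 5.8, 5.63 and 9.76 in CUS and 4.39, 3.99 and 5.17 in running libraries. Running values lay below all others, at -0.56 against CUS (SE 0.183, limma adjusted p = 0.118), the lowest difference of all 41 genes, and CUS replicate 3 stood well above the other CUS libraries. Lsm7, the most abundant ring gene, had 53.51, 44.64 and 52.56 in control, 56.79, 48.36 and 68.94 in CUS and 53.05, 40.8 and 44.12 in running libraries. Lsm2 had 10.43, 9.49 and 9.41 in control, 10.95, 8.4 and 10.92 in CUS and 9.91, 9.49 and 8.34 in running libraries, with overlap throughout.

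Lsm8 marks the nuclear ring on U6 and Lsm1 the cytoplasmic decay ring, and the other ring genes serve both. Lsm8 had 15.77, 17.01 and 15.27 FPKM in control, 17.6, 14.59 and 17.85 in CUS and 14.77, 13.8 and 12.49 in running libraries. Its running values lay below all control values, at -0.22 (SE 0.0896, limma adjusted p = 0.386). Lsm1 had 6.52, 5.65 and 6.98 in control, 8.13, 6.84 and 8.45 in CUS and 7.74, 7.18 and 6.25 in running libraries. The per-library ratio of Lsm8 to Lsm1 levels was 2.42, 3.01 and 2.19 in control, 2.16, 2.13 and 2.11 in CUS and 1.91, 1.92 and 2.0 in running libraries. The ratio was highest in the control libraries and lowest in the running libraries, without overlap. It was chosen after the values were seen and was not tested. The transcripts measure 807 bases for Lsm8 and 2663 for Lsm1. With the trend of length and GC content removed, as described further on, running minus CUS was -0.00 for Lsm8 and -0.09 for Lsm1. The lower ratio in running than in CUS was then not seen. Running minus control was then -0.13 for Lsm8 and 0.14 for Lsm1.

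The U7 pair, Lsm10 and Lsm11, differed in opposite directions. Their proteins replace SmD1 and SmD2 in the ring of the U7 snRNP. Lsm10 (chr4:126096562-126098584) had 5.27, 5.24 and 5.65 FPKM in control, 8.05, 7.48 and 7.36 in CUS and 6.05, 5.42 and 5.03 in running libraries. All CUS values lay above all others, while control and running overlapped. Lsm11 (chr11:45928266-45944996) had 4.89, 4.38 and 4.26 in control, 3.57, 3.96 and 4.04 in CUS and 5.34, 5.1 and 5.9 in running libraries. Here CUS was lowest and running highest, without overlap in any pairing. The transcripts measure 875.5 bases for Lsm10 and 6453 for Lsm11, in the shortest and longest of 10 length bins. Medians of all kept genes in these bins also had opposite signs. They were 0.146 and -0.088 in CUS against control, and -0.25 and 0.13 in running against CUS.

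Lsm10 was 0.47 higher in CUS than in control (SE 0.0799, limma adjusted p = 0.224) and -0.44 in running against CUS (adjusted p = 0.0776). Lsm11 was -0.20 in CUS against control (SE 0.0858, adjusted p = 0.322), 0.45 in running against CUS (adjusted p = 0.0776) and 0.25 in running against control (adjusted p = 0.312). Over all alternative settings the running minus CUS difference ran from -0.51 to -0.23 for Lsm10 and from 0.32 to 0.57 for Lsm11, and the limma adjusted p from 0.0117 to 0.286 for both. The ratio of Lsm10 to Lsm11 levels was 1.08, 1.2 and 1.33 in control, 2.25, 1.89 and 1.82 in CUS and 1.13, 1.06 and 0.853 in running libraries. It was above all other libraries in each CUS library, and, being chosen after the values were seen, was not tested. Neither gene has exons that overlap another gene or a near-identical copy elsewhere.

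**Figure D3:**
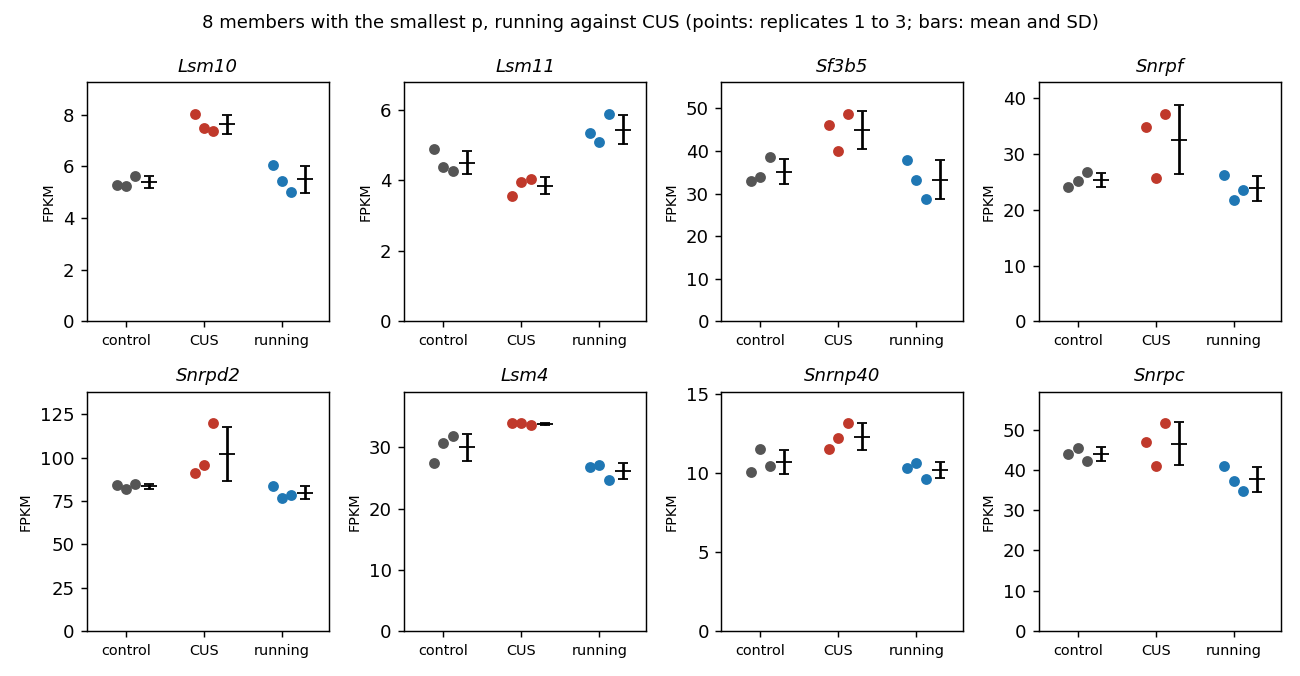
FPKM of the 8 genes with the smallest limma p in running against CUS, 1 panel per gene with the axis from 0; points are replicates 1 to 3 of each group and bars the mean with its SD. Lsm10 is highest and Lsm11 lowest in the 3 CUS libraries, and in Snrpf, Snrpc and Snrnp40 1 CUS library lies within the range of control or below it.

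The 3 LSm genes outside the rings were above 0 in CUS and in running mice against control, and near 0 between the latter groups. Lsm12 had 15.12, 16.16 and 14.78 FPKM in control, 17.45, 16.09 and 18.3 in CUS and 16.76, 17.16 and 18.04 in running libraries. Lsm14a, a component of cytoplasmic RNA granules called P-bodies, had 16.73, 17.3 and 16.8 in control, 17.83, 18.88 and 19.64 in CUS and 18.26, 18.6 and 18.41 in running libraries. Running values lay above all control values in both, by 0.17 for Lsm12 (SE 0.0658, limma adjusted p = 0.365) and 0.12 for Lsm14a (adjusted p = 0.446). Lsm14b had 33.16, 33.32 and 31.96 in control, 33.99, 34.87 and 30.39 in CUS and 33.07, 32.59 and 33.81 in running libraries, with differences of 0.01 in each comparison.

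Within the 41 genes the differences followed transcript length. Against log2 length, the CUS minus control difference had a Pearson r of -0.63 (Spearman rho -0.59) across the 41 genes, running minus CUS 0.81 (0.79) and running minus control 0.53 (0.51). Across the 13766 kept genes with a length, the values were -0.33 (-0.42), 0.53 (0.59) and 0.25 (0.31). These are correlations across genes that share the same libraries, and genes are not independent replicates. The median length of all kept genes was 2902.5 bases, and 18 of the 41 members stood among the 1377 genes of the shortest of 10 length bins.

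The 21 members with transcripts under 1500 bases were all below 0 in running against CUS, with a median of -0.27, and the 2224 other kept genes under that length had a median of -0.22. The 20 longer members had a median of -0.04, beside -0.01 for the 11501 longer other genes. The 3 running values lay below the 3 CUS values in 10 of the 21 short members and in 844 of the 2224 other short genes. For CUS minus control the medians were 0.18 and 0.13 for short members and short other genes, and 0.01 and 0.01 for long ones. With a smooth trend of length and GC content removed from each library, the members' medians became 0.02, -0.01 and 0.00 in the 3 comparisons. Of single genes, Lsm10 was then 0.37 in CUS against control and -0.23 in running against CUS, Snrpd3 0.23 and -0.22, Snrpd2 0.21 and -0.20, and Sf3b5 0.19 and -0.17. Lsm11 was then -0.10 in CUS against control and 0.32 in running against CUS, where Lsm4 and Snrpf were both -0.16. Other members moved close to 0 in running against CUS. Snrpc went from -0.30 to -0.07, Snrpe from -0.36 to -0.05 and Snrpd1 from -0.27 to -0.01. Lsm8 went from -0.27 to -0.00 and Lsm3 from -0.24 to 0.03. Whether length has a part in the differences was not tested beyond this.

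**Figure D4:**
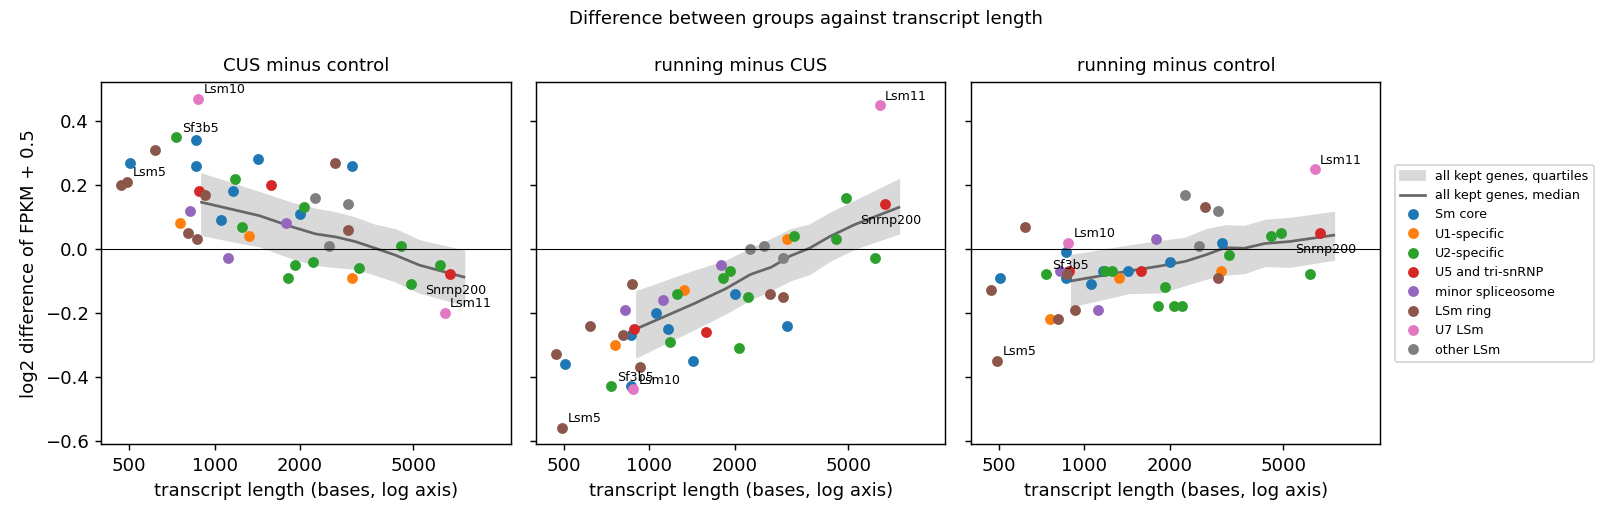
log2 difference of each of the 41 genes (points, coloured by role class) against transcript length in bases (log axis), 1 panel per comparison; the line and band are the median and quartiles of all kept genes in 10 length bins. Most members follow the line, and Lsm11 lies above it in running minus CUS.

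The library that carried most of the highest values was CUS replicate 3. A score, the mean over genes of log2(FPKM + 0.5) minus the gene's mean over all libraries, was 0.06, 0.01 and 0.21 for the 41 members in CUS, -0.01, -0.05 and 0.01 in control and -0.03, -0.08 and -0.11 in running libraries. For the Sm core it was 0.13, -0.01 and 0.38 in CUS, -0.08, -0.09 and 0.00 in control and -0.03, -0.17 and -0.14 in running libraries. CUS replicate 2 thus lay close to control and CUS replicate 3 far above it. The 84 cytosolic ribosomal protein genes scored 0.08, 0.01 and 0.50 in CUS libraries and the 78 genes of oxidative phosphorylation 0.11, -0.01 and 0.34. Their medians were 0.22 and 0.21 in CUS against control and -0.36 and -0.31 in running against CUS, both larger than that of the spliceosomal genes. In running against CUS, 79 of the 84 ribosomal genes were lower at unadjusted limma p under 0.05, and 0 were called. At that p, 15.7% of all kept genes were lower, as were 1028 of the 2224 genes under 1500 bases that are not members.

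**Figure D5:**
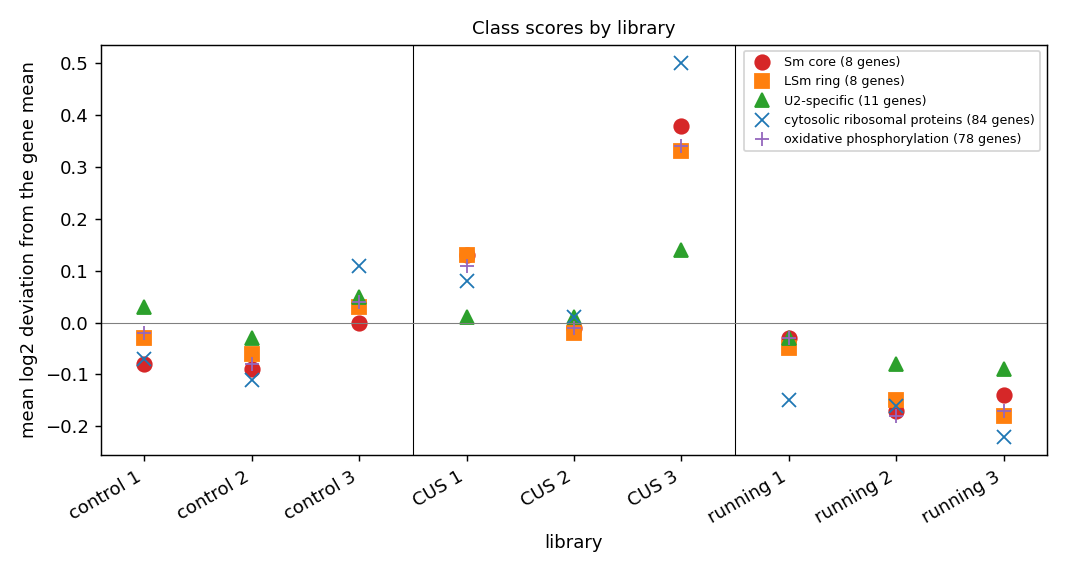
Score of each library, in log2 units, for 3 classes of spliceosomal genes and, as crosses, for cytosolic ribosomal and oxidative phosphorylation genes. In CUS replicate 3 the ribosomal genes reach 0.50 and the Sm core 0.38, while the U2-specific genes reach 0.14.

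Without CUS replicate 3 the members' median was 0.03 in CUS against control and -0.09 in running against CUS; the Sm core had 0.14 and -0.18, and the LSm rings 0.05 and -0.16. Without CUS replicate 2, limma called 16 of the 41 members in running against CUS (15 lower, and Lsm11 higher), among 1518 called genes of all kept (10.8%; 7.56% lower and 3.27% higher). These 16 were 6 Sm core genes (Snrpb, Snrpd1, Snrpd2, Snrpd3, Snrpe and Snrpf), 4 ring genes (Lsm4, Lsm5, Lsm7 and Lsm8), Snrpc, Sf3b5, Snrpb2, Snrnp25, Lsm10 and Lsm11. With libraries weighted by their estimated quality, which gave CUS replicate 3 the lowest weight (0.244) and CUS replicate 1 the highest (2.61), 12 members were called (11 lower, 1 higher), among 15.5% of all kept genes (10.6% lower, 4.92% higher). In that setting Lsm10 was also called in CUS against control, at 0.52 (adjusted p = 0.034; 0.034 to 0.496 over all alternatives), among 0.0571% of genes.

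Across libraries, FPKM sums lay between 370440.6 and 393663.3 except in CUS replicate 3, at 423256.9, and 17071 to 17280 genes were above 0. Markers of excitatory neurons summed to 3061 to 3401 FPKM in all libraries, and markers of striatum to 98.64 to 129.5. Single markers differed within these sums. In CUS against control at unadjusted limma p under 0.05, 1 excitatory marker was higher (Neurod6, 0.29) and 2 striatal ones lower (Penk and Adora2a). There 2 of 7 inhibitory and 2 of 8 astrocyte markers were lower and 0 higher, beside 5.79% and 8.9% of all kept genes. All 5 oligodendrocyte precursor markers were below 0. In running against CUS at unadjusted limma p under 0.05, 1 excitatory marker was higher and 2 were lower, beside 7.74% and 15.7% of all kept genes. There 1 inhibitory and 1 striatal marker were higher, and 1 of each was lower. Of astrocyte and oligodendrocyte markers, 1 each was higher and 0 were lower. The 8 oligodendrocyte markers were all below 0 in CUS against control, with sums of 616.4 to 1152 in control, 465.2 to 688.1 in CUS and 543.8 to 615.9 in running libraries. The highest sum belonged to control replicate 3, which also held 213.7 FPKM of choroid plexus markers against 6.36 to 39.81 elsewhere, with 212.18 FPKM from Ttr alone. Without that library the members' median was 0.12 in CUS and -0.05 in running mice against control. All 8 microglial markers were above 0 in CUS against control, with sums of 198.6 to 221.4, 203.8 to 252.1 and 188.0 to 203.1 in the 3 groups in the order above. In running against CUS all 8 were below 0, with a median of -0.13, and 2 were lower at unadjusted limma p under 0.05. The 6 meningeal markers had sums of 14.21 to 19.08, 15.89 to 24.51 and 11.69 to 23.37 in the same order. Their score was highest in CUS replicate 3, at 0.38. Of the 6 kept blood cell markers, 5 were higher in running against control at unadjusted limma p under 0.05, beside 5.15% of all kept genes. Their median there was 0.70, and their sums were 493.6 to 875.2 in control, 683.2 to 1041 in CUS and 973 to 1239 in running libraries. The 6 endothelial markers were all below 0 in running against control, and their score was lowest in CUS replicate 3, at -0.41, with sums of 54.71 to 61.53, 39.74 to 58.05 and 40.62 to 58.92 in control, CUS and running libraries. The part of these cell types in the spliceosomal differences was not tested.

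Of 157 other genes of splicing and mRNA processing, in 10 lists, none was called by limma over all genes in any comparison. At unadjusted p under 0.05, which the counts that follow use, 14.01% were higher and 2.55% lower in CUS against control, beside 8.9% and 5.79% of all kept genes. In running against CUS 5.1% were higher and 19.75% lower, beside 7.74% and 15.7%, and in running against control 6.37% were higher and 4.46% lower, beside 5.15% and 6.47%. For single lists of this size, a count of 2 or 3 is close to what those shares of all genes give. Of 17 genes of the SMN complex and Sm methylation, which load Sm proteins onto snRNAs, 2 were higher and 0 lower in CUS against control, and 3 were lower in running against CUS. Gemin7 was -0.43 in running against CUS (adjusted p = 0.105), and Ddx20, also called Gemin3, was 0.20 in CUS and 0.24 in running mice against control. Tgs1, which adds the trimethyl cap to snRNAs, was 0.22 in running against control. Other proteins of the tri-snRNP (17 genes) had medians of 0.02 in both comparisons with CUS, with 2 higher and 1 lower in CUS against control, and 1 higher and 4 lower in running against CUS. Its cyclophilin Ppih was 0.35 in CUS against control and -0.41 in running against CUS (adjusted p = 0.0827), Txnl4b was -0.21 there, and Prpf3, which binds U4/U6, was 0.23 in running against control.

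Other U2 and splice-acceptor proteins (14 genes) had 2 higher in CUS against control, and 1 higher and 5 lower in running against CUS; U2af1l4, a U2AF subunit paralogue, was -0.27 in the latter (adjusted p = 0.0877). The helicase Dhx8 went the other way there, at 0.26 (adjusted p = 0.101), and Smndc1 was 0.20 in CUS against control. Of 17 genes of the Prp19 complex and its partners, 4 were higher in CUS, and 1 was higher and 5 lower in running against CUS. There Ppie, a spliceosomal cyclophilin, was -0.30 (limma adjusted p = 0.0776) and Bcas2, a core subunit, -0.29, while Bud31 was 0.31 in CUS against control. Of 10 genes listed under other minor spliceosome proteins, 0 were higher or lower in CUS against control and 3 were lower in running against CUS. These were Zmat5, a U11/U12 protein, at -0.39, Scnm1 at -0.24 and Dhx32, a helicase-family gene placed in this list, at -0.20. Of 19 SR protein genes and their kinases, 17 were above 0 and 7 were higher in CUS against control, with a median of 0.12, and in running against CUS 2 were lower, with a median of -0.07. The kinase Clk2 was 0.30 in CUS and -0.25 in running against CUS (adjusted p = 0.107), its relative Clk1 was 0.35 in CUS (adjusted p = 0.26), and Srsf2 was 0.15 in CUS and -0.23 in running against CUS (adjusted p = 0.0832).

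The 25 hnRNP genes had medians of 0.07 and -0.08 in those comparisons. Of them, 2 were higher and 2 lower in CUS against control, beside 8.9% and 5.79% of all kept genes. In running against CUS 2 were higher and 6 lower, beside 7.74% and 15.7%. Pcbp1 was 0.16 and -0.21, Hnrnpab 0.17 and -0.17, and Hnrnpdl -0.26 in running against CUS. Of 12 genes listed under decapping and mRNA decay, where the Lsm1 ring acts, 2 were higher and 1 lower in CUS, and 1 was higher and 1 lower in running against CUS. The list also holds Naa38, an LSm-domain protein of an acetyltransferase, at 0.24 and -0.38. Naa38 was among the 2 higher in CUS, and was the 1 lower in running against CUS. The exonuclease Xrn1 was -0.21 in CUS against control, where the scavenger decapping enzyme Dcps was 0.22. Of 7 genes of histone pre-mRNA processing, where the U7 pair acts, 1 was higher in CUS against control, the stem-loop binding protein Slbp at 0.31 (limma adjusted p = 0.267), and 0 passed in running against CUS. Casp8ap2 was 0.26 in running against control, and Eri1, an exonuclease of histone mRNA, was 0.12 in CUS against control and 0.02 in running against CUS. Of 19 neuronal splicing regulators, 0 were higher or lower in CUS against control, and 2 were higher and 2 lower in running against CUS. There Rbfox1 was 0.26 (adjusted p = 0.0877) and Rbfox3, the NeuN antigen, 0.17, while Elavl2 was -0.18.

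Some values are uncertain because of related sequences. A transcript of another gene was at least 95% identical over at least 200 bases for 16 members, among them Snrpd1, Snrpd2, Snrpc, Lsm5, Lsm7 and Lsm12, mostly matched by predicted genes, and reads could have been split between them. Exons of 11 members overlapped another gene, 9 of them on the opposite strand.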

How the data were processed

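RNA of 9 libraries was polyA-selected and random-primed, per the labels' protocols. The submitters' processing notes name the build mm10, DESeq2 1.4.5, RSEM 1.2.12 and Bowtie2 2.2.5, without role or annotation. FPKM is the unit of the table the authors deposited, so read depth is unknown and no counting interval or floor is given. The 30264 rows without an NCBI gene identifier were at 0 in every library and left out.

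Values were analysed as log2(FPKM + 0.5), which understates differences of low genes, for the 14013 genes that reached 0.5 FPKM in 3 or more libraries. One limma 3.58.1 model (R 4.3.3) of all 9 libraries, with 3 group means and an intensity trend (residual degrees of freedom 6, median prior 4.71), gave the 3 comparisons, with Benjamini-Hochberg adjustment over all 14013 genes and calls at an adjusted p under 0.05. It was tried on simulated data with independent noise per gene, which does not cover shifts that many genes of a library share. An exact test of 3 against 3 libraries cannot give a p under 0.1.

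The members and lists were chosen with earlier results of these data known. Values per library are given for the 8 members with the smallest p in each comparison, the most abundant member of each role class, and the lowest and highest running minus CUS difference in each class of at least 3. From each pathway list at most 3 genes are named, smallest p first. Transcript lengths are medians over GENCODE M21 transcripts, limited to the RefSeq gene span (193 genes, 1 of them a member, Sf3b5), for 98.24% of kept genes. The trend of length and GC content was fitted per library by splines with 5 degrees of freedom each. Copies were sought with BLAST 2.17.0. Alternatives were other pseudocounts, filters and scalings, quality weights, 2-group fits, no intensity trend, the length and GC trend removed, and each library left out. Coordinates are GRCm38.p6 (RefSeq).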

Additional observations from a re-analysis of the deposited data

How the results depend on the processing

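The number of members called stayed at 0 in all 3 comparisons under every other pseudocount, filter and scaling, the 2-group fits, the fit without an intensity trend and the fit with the length and GC trend removed. Quality weights gave 1 called member in CUS against control and 12 in running against CUS. Leaving out 1 library gave 0 to 16 called members in running against CUS, with the 16 when CUS replicate 2 was left out, and 0 in the other comparisons. The median difference of the members was 0.02, -0.01 and 0.00 with the length and GC trend removed (CUS minus control, running minus CUS, running minus control), against 0.11, -0.16 and -0.07. Rescaling to TPM gave 0.04, -0.07 and -0.04. Leaving out 1 library gave 0.03 to 0.17, -0.23 to -0.09 and -0.10 to -0.04. The cause of these shifts was not tested. Of 40 single-gene differences tracked, those with the 8 smallest p per comparison and the others given as numbers in the text, 726 values under alternatives kept direction and side of the threshold, 18 passed it where the reported value had not, all with quality weights or without CUS replicate 2, and 16 reversed. None of the 24 with the smallest p reversed. For CUS minus control, Lsm14b was -0.06 with TPM and -0.03 with quantile normalization, and Snrpg -0.06 with quality weights and -0.05 with the trend removed; leaving out 1 library gave -0.03 to 0.07 and -0.10 to 0.19. For running minus CUS, Snrpn was 0.02 with quantile normalization, Lsm14b -0.02 with quality weights, and with the trend removed Snrpa and Snrnp35 were 0.02 and Snrnp200 was -0.00; leaving out 1 library gave -0.05 to 0.04 for Lsm14b. For running minus control, leaving out 1 library gave -0.00 to 0.03 for Lsm14b. Over all 123 differences of the 41 members, 44 had the other sign under at least 1 alternative, and the largest of these measured 0.24. No paired analysis was possible because the replicate numbers follow the order of listing and the labels share too few numbers between groups. Depth behind the FPKM values is unknown, so no counting limit can be stated for the low genes Lsm10 and Lsm11.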
